A study of Mus musculus with 6 samples.

Results

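ATP-binding cassette (ABC) genes were followed in URE cells, a mouse leukaemia line, carrying a hairpin against Hlx or a control hairpin. A gene counted as an ABC gene where the platform annotation of a probe set named only that gene and its symbol began with Abc, a subfamily letter from a to g and a digit. Where a gene had more than 1 probe set, the brightest by mean over the 6 arrays stood for it. This gave 48 genes from 49 probe sets, out of 19938 genes measured: 16 in subfamily A, 9 in B, 10 in C, 3 in D, 1 in E, 3 in F and 6 in G. All 48 entered the test, since no filter on low signal was used.

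The cells labelled shHLX carried a lentiviral vector with a short hairpin against the homeobox gene Hlx, whose product binds DNA, and the cells labelled shControl carried the same vector with a hairpin against luciferase. Each group had 3 Affymetrix arrays. Both groups were infected, expanded for several days and sorted for the green fluorescent protein of the vector, so both groups share the vector and the sort. The labels name URE only as a leukaemia line; as background, it is known as a line from mice that lack an upstream regulatory element of Spi1, the gene of the transcription factor PU.1, a deletion that both groups would then carry. The sources used here do not say whether a group came from more than 1 infection or culture, so the p-values measure the spread between these arrays, which may be technical.

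ABC proteins bind and split ATP in a conserved cassette, and most of them use that energy to carry a substrate across a membrane. Members of subfamilies A and G move cholesterol and phospholipids, B and C hold the exporters of drugs and of glutathione conjugates together with mitochondrial transporters, and D serves peroxisomes and lysosomes. The proteins of E and F have no membrane part and act on ribosomes. In blood cells ABC proteins are known for sterol export from macrophages and for drug efflux from stem and leukaemia cells.

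Values are log2 signals, so a difference of 1 is a doubling, and differences are shHLX minus shControl. A gene was called where limma's test over all 19938 genes gave a Benjamini-Hochberg adjusted p under 0.05. Signals of different probe sets do not measure relative amounts of RNA, and the rank of a signal among all genes is used only as a rough mark of a dim or bright probe set. Detection values were not used here, and 13 of the 48 genes had a mean signal below the 25th percentile of all genes (6.13), where a ratio of signals tends to understate a change in RNA. In bulk samples, fewer cells of a type and less RNA per cell cannot be told apart.

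The array medians lay between 7.02 and 7.10. The first principal component (59.4% of the variance) separated the groups, and the second (18.1%) set shHLX 3 (9.10) and shControl 1 (9.53) apart from the other arrays (-9.04 to -0.64). Hlx itself had 10.08, 10.06 and 10.17 on the shHLX arrays, against 10.21, 10.12 and 10.20 on the shControl arrays. The difference of -0.07 did not pass limma (adjusted p = 0.479), and a two-sided exact permutation test gave p = 0.2, where 0.1 is the smallest possible with 3 arrays against 3. A loss of Hlx mRNA was thus not seen, and each direction below rests on the labels of the libraries. Of 9 myeloid progenitor markers, 7 lay above the median signal of all genes, among them Elane, Prtn3 and Ctsg. The mean signal of these 9 was 10.39 to 10.47 on the shHLX arrays and 10.69 to 10.72 on the shControl arrays, and 2 of them, Mpo and Kit, were called lower. Whether that shift bears on the ABC genes was not tested.

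Among the 48 ABC genes, Abca9, Abca3, Abcb1b, Abcd3 and Abca8a rose on the shHLX arrays and Abcg1 fell. The called share was 12.5%, beside 6.18% of all genes tested (3.75% higher and 2.43% lower). The median difference of the 48 was -0.02, beside -0.01 for all genes, with 19 above 0 and 29 below. The groups did not overlap for 18 of the 48 genes, or 37.5%, beside 26.2% of all genes tested. Of these, 11 were higher and 7 were lower in shHLX, where all genes gave 14.7% and 11.4%. Without shHLX 3 and shControl 1, 3 ABC genes were called higher (Abca9, Abca3 and Abcb1b) and Abcg1 lower.

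**Figure D1:**
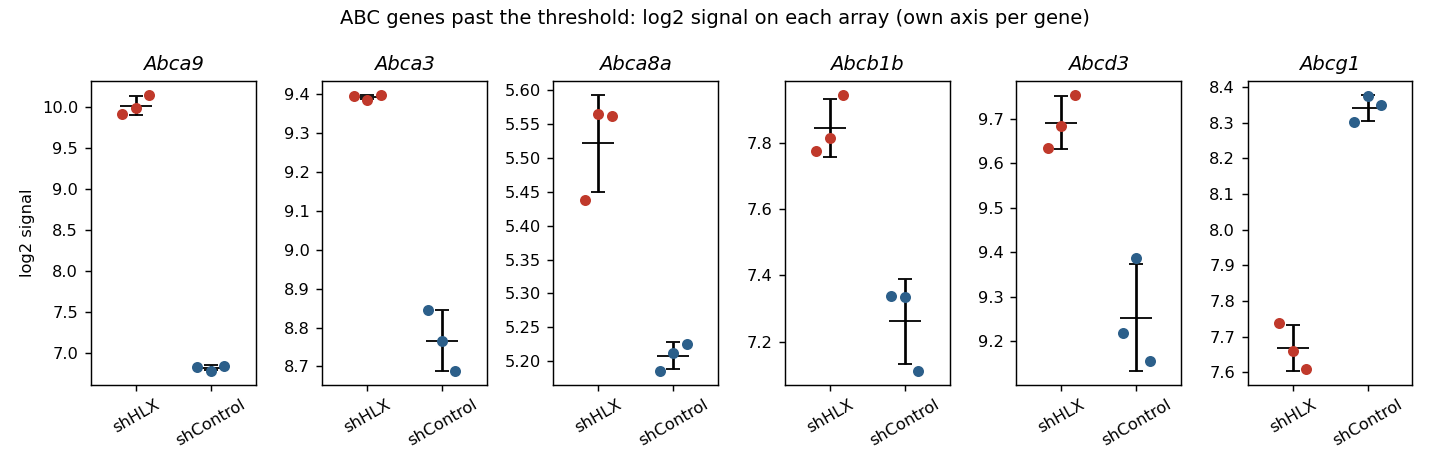
Log2 signal of the 6 called ABC genes on each array, with points for arrays in replicate order, horizontal bars for means and vertical bars for SD (n = 3), on an axis of its own for each gene. The 3 shHLX points lie above the 3 shControl points for Abca9, Abca3, Abca8a, Abcb1b and Abcd3, and below them for Abcg1.

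Subfamily A holds large transporters of lipids. Of its 16 genes, 3 rose, none fell and 13 did not pass, at a median difference of -0.02. Abca9 had 9.91, 9.99 and 10.15 on the shHLX arrays, against 6.84, 6.79 and 6.85 on the shControl arrays. All 3 shHLX arrays lay far above all 3 shControl arrays, with an SD of 0.12 in shHLX and 0.033 in shControl (n = 3 each). Abca9 rose 9.12-fold (95% confidence interval 8.22 to 10.1, limma adjusted p = 2.66e-07), which ranked it 3 among all rises of the 19938 genes. In human cells ABCA9 is known to increase as monocytes mature into macrophages. Of 7 macrophage markers, 1 lay above the median signal of all genes. None of the 7 passed limma here, with 0 at an unadjusted p under 0.05. Their mean signal was 6.52 to 6.62 on the shHLX arrays and 6.48 to 6.64 on the shControl arrays. Whether macrophage maturation bears on Abca9 was not tested.

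Abca3, which loads surfactant lipids into lamellar bodies of lung cells, had 9.40, 9.39 and 9.40 on the shHLX arrays, against 8.84, 8.77 and 8.69 on the shControl arrays. The shHLX arrays were nearly equal, and each lay above each shControl array. The rise was 1.54-fold (1.42 to 1.68, limma adjusted p = 0.00029). Abca17, its neighbour on chromosome 17, had 6.46, 6.38 and 6.45 in shHLX against 6.51, 6.65 and 6.70 in shControl and did not pass (-0.19, limma adjusted p = 0.122). With array weights Abca17 passed (limma adjusted p = 0.0486).

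Abca9 lies in a row of subfamily A genes on chromosome 11, in the order Abca8b, Abca8a, Abca9, Abca6 and Abca5. Abca8a had 5.44, 5.56 and 5.56 on the shHLX arrays, against 5.19, 5.21 and 5.23 on the shControl arrays. Its groups were separate, and it rose 1.24-fold (1.15 to 1.35, limma adjusted p = 0.00884). This signal is dim, below the 25th percentile of all genes, and Abca8a was not called without shHLX 3 and shControl 1 (adjusted p = 0.0712). Abca8b differed by -0.19 (95% confidence interval -0.38 to 0.01), Abca6 by -0.04 (-0.19 to 0.11) and Abca5 by 0.05 (-0.04 to 0.15), and none of these passed. Within the row, therefore, 2 of 5 genes rose. The signal intervals of the other 3 lay below that of Abca9, but these genes are also below the 25th percentile of signal, so a larger change in their RNA is not excluded. Whether probes for a member of this row also bind RNA of its close relatives was not tested.

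**Figure D2:**
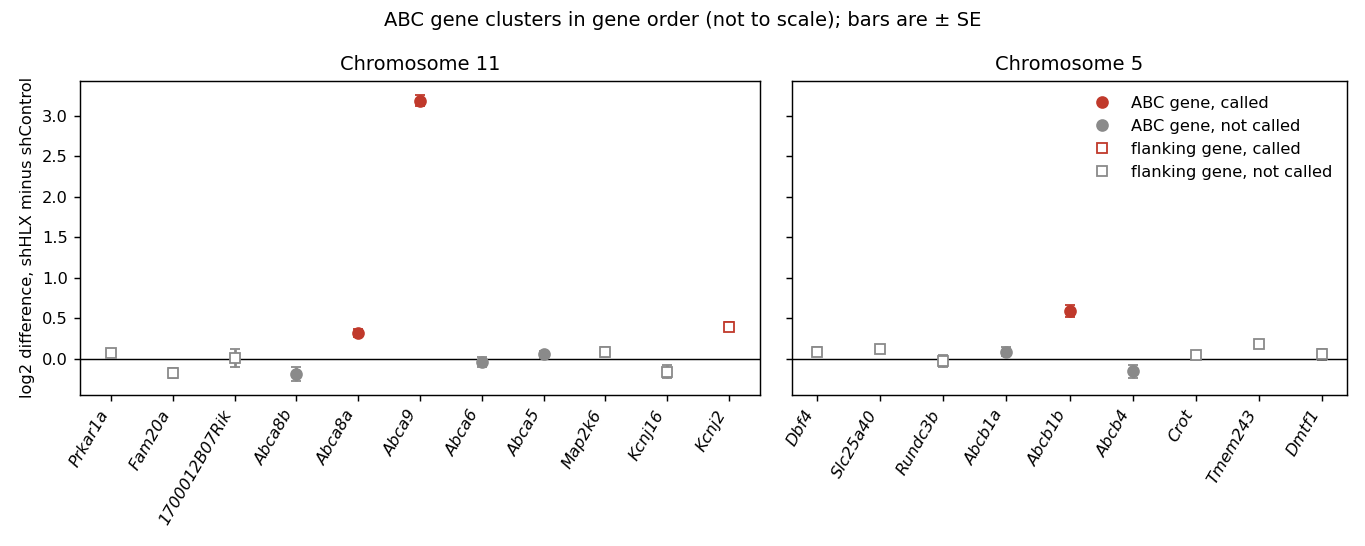
Log2 difference, shHLX minus shControl, with bars of 1 SE, for the ABC gene rows of chromosome 11 and chromosome 5 and the 3 nearest measured protein-coding genes on each side, in RefSeq gene order. On chromosome 11 Abca9 stands at 3.19 and Abca8a at 0.31, and on chromosome 5 Abcb1b stands at 0.58, while Kcnj2 is the called flanking gene.

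The genes next to the row were measured too, a comparison chosen after the values were seen. Going outwards, 1700012B07Rik (0.01), Fam20a (-0.17) and Prkar1a (0.07) on the side of Abca8b did not pass. On the side of Abca5, Map2k6 (0.08) and Kcnj16 (-0.16) did not pass, and Kcnj2, which encodes an inward-rectifier potassium channel, rose by 0.40 ± 0.05 (SE, log2 scale, limma adjusted p = 0.00326).

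The promoters of Abca9 and Abca8a, the called neighbours, are shown with that of Abcb1b, called in another row, because the same letters were searched in each. They are RefSeq sequences of 300 bases around the annotated start in build GRCm38.p6, 5′ to 3′ in the direction of the gene: Abca9 at chr11:110168104-110168403 on the minus strand, Abca8a at chr11:110095888-110096187 on the minus strand and Abcb1b at chr5:8797897-8798196 on the plus strand. Capitals mark matches on either strand to TATAAA, the TATA box. They also mark CCAAT, a common promoter box, and likewise TAATTA, a core that homeobox proteins can bind.
Abca9: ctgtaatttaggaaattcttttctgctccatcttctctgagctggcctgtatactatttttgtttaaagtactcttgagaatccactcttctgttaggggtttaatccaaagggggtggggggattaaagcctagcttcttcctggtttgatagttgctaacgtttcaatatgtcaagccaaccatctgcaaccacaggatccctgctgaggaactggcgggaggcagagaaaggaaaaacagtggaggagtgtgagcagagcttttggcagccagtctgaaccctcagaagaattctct
Abca8a: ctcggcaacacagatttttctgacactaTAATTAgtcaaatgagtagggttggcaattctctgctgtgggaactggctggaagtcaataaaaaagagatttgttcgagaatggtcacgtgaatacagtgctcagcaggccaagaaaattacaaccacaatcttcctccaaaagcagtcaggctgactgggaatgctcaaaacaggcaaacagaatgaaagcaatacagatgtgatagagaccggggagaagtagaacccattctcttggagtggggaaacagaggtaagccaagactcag
Abcb1b: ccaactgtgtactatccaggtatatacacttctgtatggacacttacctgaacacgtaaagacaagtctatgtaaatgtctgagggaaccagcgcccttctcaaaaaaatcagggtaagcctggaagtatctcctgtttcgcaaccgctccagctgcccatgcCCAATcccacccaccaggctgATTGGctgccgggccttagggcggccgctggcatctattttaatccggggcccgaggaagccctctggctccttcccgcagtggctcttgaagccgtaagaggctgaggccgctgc
The Abca8a window holds 1 TAATTA, the Abcb1b window 2 copies of CCAAT on opposite strands, and the Abca9 window none of these letters. The windows of Abca3 and Abcd3, not shown, hold none either, and Abcg1 had no match in the table used. Over the 32851 promoters of that table, the core TAATTA was in 5.29%, the box CCAAT in 37.4% and the box TATAAA in 13.6%. Of 45 promoter entries for 38 of the ABC genes, 2 held TAATTA, while 16 held the box CCAAT and 7 the TATA box. A match is a string of letters and not a bound site.

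Other members of subfamily A that export cholesterol or phospholipid did not pass. Abca1, which hands cholesterol to apolipoprotein A-I, had 6.45, 6.36 and 6.32 on the shHLX arrays, against 6.46, 6.33 and 6.46 on the shControl arrays, and the groups overlapped (-0.04, 95% confidence interval -0.17 to 0.10). Abca7, linked to phospholipid export and phagocytosis, had 11.12, 11.20 and 11.21 in shHLX against 10.96, 11.03 and 10.98 in shControl. Its groups were separate, but the difference of 0.19 missed the threshold (limma adjusted p = 0.0597). Abca7 passed with each array centred on its median (limma adjusted p = 0.0474) and with array weights (0.0468). It also passed above the 25th percentile of signal (0.033), above the median (0.011) and with a prior variance that follows intensity (0.00203). Without variance moderation Abca7 did not pass (adjusted p = 0.0843).

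Subfamily G gave the called fall. Abcg1, which moves cholesterol to high-density lipoprotein, had 7.74, 7.66 and 7.61 on the shHLX arrays, against 8.30, 8.37 and 8.35 on the shControl arrays. All shHLX arrays lay below all shControl arrays, and Abcg1 fell by 0.67 on the log2 scale (SE 0.05), a ratio of 0.627 (0.579 to 0.679, limma adjusted p = 0.000188). Of the other 5 members none passed, and the median of the 6 was -0.12. Abcg2, the drug and urate exporter of stem cells, had 5.64, 5.71 and 5.57 in shHLX against 5.54, 5.58 and 5.52 in shControl (0.09, limma adjusted p = 0.375). Abcg3, a rodent gene, had 4.89, 4.92 and 4.82 in shHLX against 4.96, 5.06 and 5.02 in shControl and did not pass (-0.13, limma adjusted p = 0.187).

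Across subfamilies, 9 ABC genes were listed as exporters of cholesterol or phospholipid. Of these Abca3 rose, Abcg1 fell and 7 did not pass, at a median of -0.04. Their partners in sterol handling were read from a list of 19 genes, 16 of them measured. Of the 16, 2 rose and 1 fell, beside 3.75% and 2.43% of all genes tested. Lipa, the lysosomal acid lipase, rose 1.22-fold (1.14 to 1.32, limma adjusted p = 0.00873), and Nceh1, a neutral cholesterol ester hydrolase, rose 1.23-fold (1.12 to 1.34, limma adjusted p = 0.0231). Mylip, which marks the LDL receptor for degradation, fell by 0.24 ± 0.05 (SE, log2 scale, limma adjusted p = 0.0401). The other 13 did not pass, among them Nr1h3 (-0.15, limma adjusted p = 0.131), the gene of a sterol-sensing liver X receptor. Whether the activity of that receptor differed was not tested. In a test of genes above the median of signal, Nr1h3 and Scarb1 (-0.14) passed as lower. Scarb1 also passed with a prior variance that follows intensity. The list's median was -0.05. Lipa was lost without shControl 3 (adjusted p = 0.0507). Without shHLX 3 and shControl 1 together, none of these 3 passed (adjusted p = 0.0693 for Lipa, 0.0756 for Nceh1 and 0.186 for Mylip). Nceh1 was lost without any single array but shHLX 1 (adjusted p up to 0.0774), and Mylip without any but shControl 2 (up to 0.155) and with each array centred on its median (0.0674). Neither passed without variance moderation (0.0951 for Nceh1 and 0.113 for Mylip) or with the replicate number as a block (adjusted p = 0.0803 for Nceh1 and 0.12 for Mylip).

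**Figure D3:**
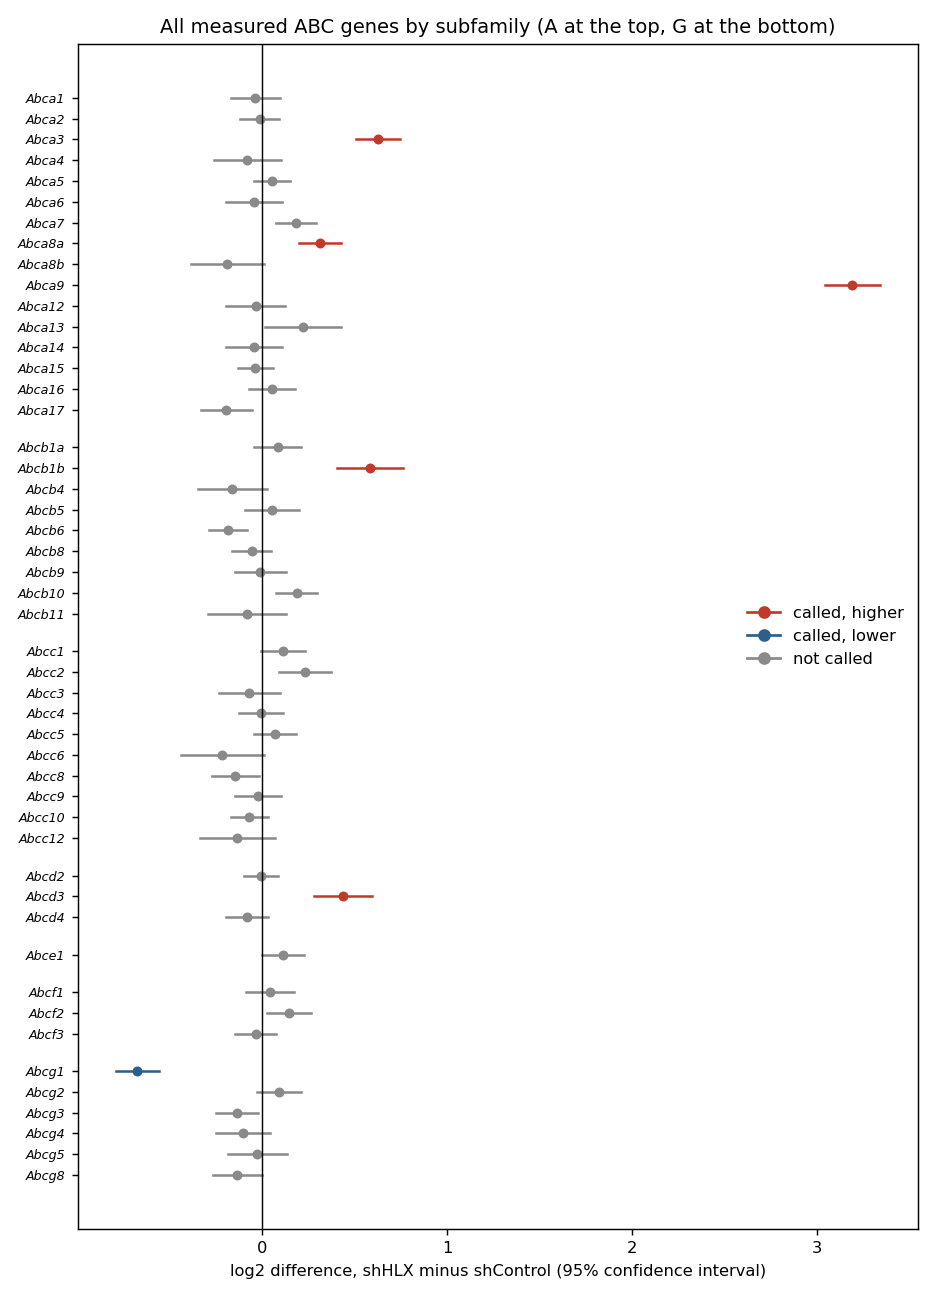
Log2 difference, shHLX minus shControl, of the 48 ABC genes by subfamily, with 95% confidence intervals from limma. The 5 called rises run from 0.31 (Abca8a) to 3.19 (Abca9), Abcg1 is the called fall at -0.67, and the 42 other genes lie between -0.21 and 0.23.

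Subfamily B holds drug exporters of the plasma membrane and transporters of mitochondria. Of 9 genes, Abcb1b rose and 8 did not pass, at a median of -0.01. Abcb1b, which with Abcb1a encodes mouse P-glycoprotein, had 7.78, 7.82 and 7.95 on the shHLX arrays, against 7.34, 7.33 and 7.11 on the shControl arrays. The groups were separate, with the widest spread in shControl, and the rise was 0.58 ± 0.08 (SE, log2 scale, limma adjusted p = 0.00344). Its neighbours on chromosome 5 did not pass. Abcb1a had 6.90, 6.86 and 6.95 in shHLX against 6.72, 6.86 and 6.87 in shControl (0.09, 95% confidence interval -0.04 to 0.21). Abcb4, which moves phosphatidylcholine into bile, differed by -0.16 (-0.34 to 0.03). The call of Abcb1b was lost in a test without variance moderation (adjusted p = 0.0599).

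Of the 3 measured mitochondrial members of subfamily B none passed, although Abcb10 and Abcb6 lay close to the threshold. Abcb10, a transporter of the inner mitochondrial membrane that supports haem synthesis in red cell precursors, had 8.97, 9.05 and 9.10 on the shHLX arrays, against 8.84, 8.88 and 8.84 on the shControl arrays. It did not pass (0.19, limma adjusted p = 0.0643), though its groups were separate. Abcb6, linked to porphyrin transport, had 8.23, 8.25 and 8.23 in shHLX against 8.40, 8.39 and 8.47 in shControl, also separate and not called (-0.18, limma adjusted p = 0.0528). Abcb8 differed by -0.06 (limma adjusted p = 0.549). Both Abcb10 and Abcb6 passed under both filters that drop dim genes and with a prior variance that follows intensity. Abcb6 also passed after a second quantile normalization and with array weights. Without variance moderation neither passed (adjusted p = 0.0569 for Abcb6 and 0.102 for Abcb10). Of 16 measured haem and iron-sulfur genes (18 listed), Alas1, the enzyme that starts haem synthesis, fell by 0.53 ± 0.04 (SE, log2 scale, limma adjusted p = 0.000286). Alas1 had 11.69, 11.68 and 11.71 in shHLX against 12.27, 12.22 and 12.19 in shControl, and the other 15 genes did not pass. Among these, Ppox (-0.17) and Slc25a37 (0.13) passed with the prior variance that follows intensity, and Ppox also above the median of signal. Of all genes tested, 6.18% were called in the main test.

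None of the 10 genes of subfamily C passed limma, and their median was -0.04. An unadjusted p below 0.05 was found for 2 of the 10, beside 3861 of all 19938 genes tested. Without variance moderation 0 passed, while Abcc2 passed with a prior variance that follows intensity, under both filters that drop dim genes, and without shHLX 1. Abcc2, which secretes conjugated bilirubin from liver cells, had 8.08, 8.26 and 8.25 on the shHLX arrays, against 7.99, 7.90 and 7.99 on the shControl arrays. The groups were separate and the difference of 0.23 missed the threshold (limma adjusted p = 0.0707). Abcc1, the exporter of leukotriene C and glutathione conjugates, differed by 0.11 (95% confidence interval -0.01 to 0.23), and Abcc4, an exporter of cyclic nucleotides, by -0.004 (-0.12 to 0.12). The largest negative differences were those of Abcc6 (-0.21, limma adjusted p = 0.279) and of Abcc8, a subunit of ATP-sensitive potassium channels (-0.14, limma adjusted p = 0.2).

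Over both subfamilies and Abcg2, 11 drug and conjugate exporters were listed, of which Abcb1b rose and 10 did not pass, at a median of 0.07. Several of them carry glutathione conjugates, so genes of glutathione and the oxidant response were read as partners. Of 14 such genes, all measured, 4 rose, 1 fell and 9 did not pass, at a median of 0.09. Over all genes tested, 3.75% rose and 2.43% fell. Among the 9, Gclm (0.14), Gss (0.17), Gsr (-0.11) and Gstp1 (-0.18) passed with the prior variance that follows intensity. Gclm and Gstp1 also passed under both filters that drop dim genes, and Gss under the stricter filter. Hmox1, the haem oxygenase, had 8.63, 8.61 and 8.61 in shHLX against 7.78, 7.92 and 7.77 in shControl, a rise of 1.74-fold (0.80 ± 0.05 in log2 units, SE, limma adjusted p = 0.000108). Nqo1, a quinone reductase, rose 1.68-fold (0.75 ± 0.07 in log2 units, SE, limma adjusted p = 0.000622), with a dim signal below the 25th percentile that both filters on signal left untested. Mgst1, a microsomal glutathione transferase, rose 1.53-fold (1.37 to 1.70, limma adjusted p = 0.00136). The cystine carrier gene Slc7a11 rose 1.29-fold (limma adjusted p = 0.00604), and the stricter filter left it untested. Gsta4, a transferase for lipid aldehydes, fell by 0.40 on the log2 scale (limma adjusted p = 0.0138). Its call was lost without shHLX 2, shControl 1 or shControl 3 (adjusted p up to 0.0675), without variance moderation (0.0997) and without both shHLX 3 and shControl 1 (0.0892). Nfe2l2, the regulator of this response, differed by 0.04 and did not pass (limma adjusted p = 0.628).

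**Figure D4:**
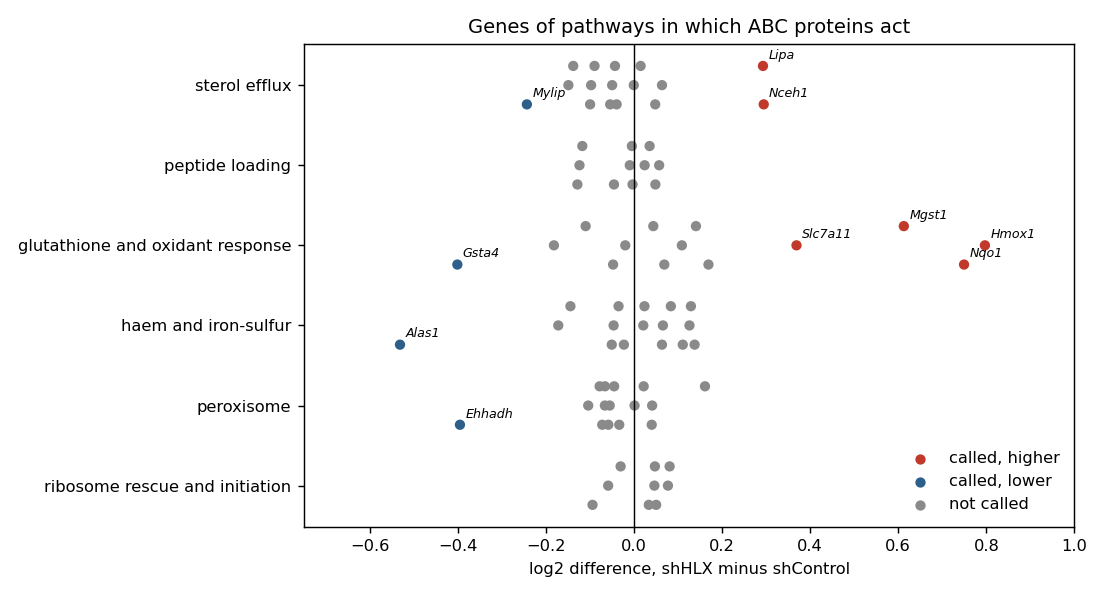
Log2 difference, shHLX minus shControl, of the measured genes in 6 lists of pathways in which ABC proteins act, with 1 point per gene and called genes named. Hmox1, Nqo1, Mgst1 and Slc7a11 lie furthest to the right and Alas1 furthest to the left at -0.53.

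Subfamily D moves fatty acids into peroxisomes, apart from Abcd4, which takes part in cobalamin release from lysosomes. Abcd3, the abundant peroxisomal membrane transporter of branched and dicarboxylic fatty acids and bile acid precursors, had 9.64, 9.68 and 9.75 on the shHLX arrays, against 9.22, 9.39 and 9.16 on the shControl arrays. Its groups were separate and it rose 1.35-fold (1.21 to 1.51, limma adjusted p = 0.00786). The call was lost without variance moderation (adjusted p = 0.0776) and without shHLX 3 and shControl 1 (adjusted p = 0.0637). Abcd2, a carrier of very long chain fatty acids, had 12.72, 12.74 and 12.75 in shHLX against 12.73, 12.74 and 12.76 in shControl, with overlapping groups and a difference of -0.01 (95% confidence interval -0.10 to 0.09). Abcd4 differed by -0.08 (limma adjusted p = 0.427). Of 15 measured peroxisome genes (19 listed), none rose and Ehhadh, an enzyme of peroxisomal beta oxidation, fell by 0.40 ± 0.05 (SE, log2 scale, limma adjusted p = 0.00322). The 15 had a median of -0.06, and 6.18% of all genes tested were called in either direction.

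None of the 4 genes of subfamilies E and F passed limma. An unadjusted p below 0.05 was found for 2, Abce1 and Abcf2, beside 3861 of all 19938 genes tested. Both passed with that intensity trend and Abcf2 also under the stricter of those filters, and 0 passed without variance moderation. Abce1, which splits ribosomes after translation ends, had 12.01, 12.03 and 12.08 on the shHLX arrays, against 11.93, 11.99 and 11.86 on the shControl arrays (0.11 ± 0.05, SE, limma adjusted p = 0.258). Abcf2 differed by 0.15 (limma adjusted p = 0.161), with separate groups. Abcf1, which promotes translation initiation, differed by 0.04, and Abcf3 by -0.03. Of 9 measured genes of ribosome rescue and initiation (10 listed), none passed, and 0 had an unadjusted p below 0.05, and 0 passed without variance moderation.

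The peptide transporter genes Tap1 and Tap2 belong to the ABC superfamily under symbols outside the rule. Tap1 differed by -0.01 (limma adjusted p = 0.961) and Tap2 by -0.12 (limma adjusted p = 0.254). None of the 11 genes of peptide loading, Tap1 and Tap2 included, passed limma. An unadjusted p below 0.05 was found for 3 of the 11, beside 3861 of all 19938 genes tested. With that trend, or under the stricter filter, Tapbp and Psmb8 passed, and without variance moderation 0 did.

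The 18 ABC genes not described singly by the naming rule differed by -0.13 to 0.22, with adjusted p of 0.229 or more. Their groups were separate for 2 of the 18, beside 26.2% of all genes tested. Abca13 (0.22) passed with the prior variance that follows intensity. Marker lists of other cell types were read beside the ABC genes. None of 8 fibroblast markers was called, 0 had an unadjusted p below 0.05, and their mean signal was 6.51 to 6.69 on the shHLX arrays and 6.58 to 6.68 on the shControl arrays. The 6 endothelial markers averaged 7.07 to 7.10 in shHLX and 7.25 to 7.26 in shControl, with Pecam1 called higher and Cdh5 called lower. No gene was called by limma among 4 hepatocyte, 2 erythroid, 3 B cell and 4 T cell markers, with 0 at an unadjusted p below 0.05 apart from 1 erythroid gene, Epor. The mean signal of the hepatocyte markers was 6.10 to 6.15 in shHLX and 6.08 to 6.21 in shControl, and that of the erythroid markers 7.31 to 7.36 in shHLX and 7.41 to 7.45 in shControl. The B cell markers lay at 6.13 to 6.26 in shHLX and 6.16 to 6.39 in shControl, and the T cell markers at 6.61 to 6.90 in shHLX and 6.81 to 6.94 in shControl. Whether the endothelial or erythroid shift bears on the ABC genes was not tested.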

How the data were processed

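RNA from 100000 cells per sample was extracted, and 10 ng of it went into Nugen Ovation Pico amplification, per the labels' protocols. The deposited values are log2 signals per probe set, 1 column per array, and RMA (background correction, equalised arrays, probes summarised) and Affymetrix Power Tools 1.178 stand in the submitters' processing notes. For the build, nothing was given in the sources used here.

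Of 35556 probe sets, 21789 had 1 symbol in the platform annotation, 1621 several and 12146 none. The brightest probe set per gene gave 19938 genes, and all 48 ABC genes matched RefSeq by Entrez identifier. The test was that of limma 3.58.1 under R 4.3.3 (lmFit and eBayes without covariates, two-sided, Benjamini-Hochberg over all genes, threshold 0.05), after the code was tested on simulated data. Precision is limited by the number of arrays (median SD within groups 0.0728). Matplotlib 3.10.9 under Python 3.11.15 drew the figures.

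The members, the lists and the tests were chosen with earlier results of these data known. Values were named for called ABC genes, the chromosome 11 row, the 2 largest rises and falls and the brightest gene of each subfamily, separate groups differing by at least 0.2, 9 measured reference members, and the called partner genes with the smallest p, up to 4 per list. Gsta4, the flanking genes, Tap1, Tap2, Tapbp, Psmb8, Epor, Scarb1, Nr1h3, Nfe2l2, Gclm, Gss, Gsr, Gstp1 and Abcb5 were named after their values were seen. So were Abca13, Ppox and Slc25a37. Same-numbered arrays did not deviate together (correlations -0.17, 0.13 and -0.15), so the block is an alternative. The others were further normalization, filters on signal, other variance models and probe set rules, thresholds, and leaving out arrays. No protein sequences were used here.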

Additional observations from a re-analysis of the deposited data

How the results depend on the processing

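Over 18 alternatives that refit the test, 487 of the values of 30 ABC genes kept their direction and side of the threshold, 21 gained a call, 4 lost it and 9 changed sign. Abca9 (3.12 to 3.24), Abca3 (0.59 to 0.67) and Abcg1 (-0.71 to -0.64) kept their calls in all of them, and at a fold of at least 1.5, with adjusted p up to 0.00255, 0.0131 and 0.0113. Abca8a fell under both filters on signal and was not tested there. Leaving out a single array gave 5 to 6 ABC genes called higher and 1 called lower, while all genes gave 698 to 901 calls. Abcc2 (0.29) was the added call without shHLX 1. The count called higher was 8 among genes above the median of signal, 11 with an intensity trend, 3 without variance moderation, 2 with a fold of at least 1.5, 8 at an adjusted p under 0.10 and 3 without shHLX 3 and shControl 1, an alternative chosen after seeing the data. The count called lower was 2 after a second quantile normalization, 2 above the 25th percentile, 2 above the median, 2 with the trend, 3 with array weights and 2 at 0.10. Over all genes the called share was 6.62% (1319 genes) after the second quantile normalization and 11.3% (2261) with the trend. It was 4.2% (838) without variance moderation, 8.44% (1683) with array weights and 1.3% (260) with the fold. At 0.10 it was 9.05% (1804) and without shHLX 3 and shControl 1 it was 3.72% (741), against 6.18% (1233). The filters tested fewer genes, 14953 above the 25th percentile (35 of them ABC genes) and 9969 above the median (22 of them ABC genes). Of those genes, 10.2% (1527) and 20.7% (2064) were called.

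Subfamily medians moved where the filter left fewer genes, to 0.087 (A, 25th percentile), 0.22 (A, median), 0.0667 (B, median), 0.0727 (C, median) and -0.67 (G, median, where Abcg1 alone was left). By group means, Abca9 and Abcb1b lay above the median of all genes in shHLX (percentiles 82.5 and 55.5) but below it in shControl (39.6 and 47.9). The filter at the median thus kept both through the group in which they were high. The A and B medians and the count called higher under that filter depend on this. The signs that turned were of differences near 0 and never called: Abca1 (0.0145) and Abcf1 (-0.011) without shHLX 3 and shControl 1, Abcc4 when centred (0.0135) or with array weights (0.0278), and Abcd2 when centred (0.0121). Without a single array Abcc4 ran from -0.0365 to 0.0383, above 0 without shHLX 2 or shControl 2, and Abcd2 from -0.0108 to 0.00358, above 0 without shHLX 1 or shControl 3. The cause was not tested.

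The 10 called partner genes became 16 above the median of signal, 19 with the trend, 3 with the fold and 6 without shHLX 3 and shControl 1. In those settings 20.7%, 11.3%, 1.3% and 3.72% of all genes tested were called, against 6.18% in the main test. Without a single array 6 to 9 partner genes were called, 6 being without shControl 3, while all genes gave 698 to 901 calls. With the replicate number as a block the 6 ABC genes kept their calls (5 higher and 1 lower), all genes gave 800 calls, Hlx differed by -0.07, and the partners had 8, having lost Nceh1 and Mylip. Hlx was not called under any alternative run (-0.10 to -0.05).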

Other observations

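The 3 nearest measured protein-coding genes on each side of the other called ABC genes, chosen after the values were seen, did not pass limma. Beside Abcg1 on chromosome 17 these were Umodl1 (-0.004), Glp1r (-0.03) and Dnah8 (-0.09) towards lower coordinates and Tff3 (-0.06), Tff2 (-0.05) and Tff1 (-0.06) towards higher ones. Beside Abcd3 on chromosome 3 the ABC gene Abca4 (-0.08), which moves retinoids in photoreceptors, and Gclm (0.14), a subunit of the enzyme that starts glutathione synthesis, were among them. Over all the loci, the row of chromosome 11 included, 1 of 30 flanking genes was called, Kcnj2, beside 6.18% of all genes tested. The differences of the 30 ran from -0.19, that of the ABC gene Abca17, to 0.40.

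Abcb5 was the ABC gene with several probe sets. They differed between the groups by 0.05 and by -0.01, and neither was called when every probe set was tested (adjusted p = 0.694 and 0.952).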
